A study of Mus musculus with 18 samples.

Results

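The 7 genes described here encode cytokines that effector T cells release or display: Ifng, Tnf, Csf2, Il2, Lta, Ltb and Tgfb1. They were taken by name from a table of 34162 mouse genes, and all 7 were found and passed the filter on low counts, which kept 14876 genes. Interferon gamma, encoded by Ifng, is the signature product of type 1 helper T cells and activates macrophages. TNF (Tnf) and lymphotoxin alpha (Lta) bind the same TNF receptors and switch on NF-kB, while lymphotoxin beta (Ltb) anchors lymphotoxin alpha to the cell surface, where the complex binds the lymphotoxin beta receptor. GM-CSF (Csf2) drives the growth and activation of myeloid cells, and interleukin 2 (Il2) drives T cell growth through STAT5. TGF-beta 1 (Tgfb1) is made as a latent precursor, restrains effector T cells and acts through SMAD proteins. Most of these mRNAs are switched on by T cell receptor signals through NFAT, AP-1 and NF-kB and are then removed quickly by RNA decay proteins, and in the intestine interferon gamma and TNF from CD4+ T cells are known drivers of inflammation in T cell transfer models.

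RNA was sequenced from pools of about 500 sorted CD4+ effector T cells recovered 3 weeks after T cell transfer from the small intestinal lamina propria (siLP), the colonic lamina propria (cLP) and the spleen of Rag-deficient mice, hosts that cannot make lymphocytes with rearranged receptors. The donors' T cells were C57BL/6 Nr1i3-/- (CARko), which lack the ligand-sensing nuclear receptor CAR, or C57BL/6 CD45.1+ (WT), which have the receptor and carry a variant of a leukocyte surface protein as a mark. There were 3 libraries for each of the 6 groups siLP CARko, siLP WT, cLP CARko, cLP WT, spleen CARko and spleen WT. The labels give no age or number of hosts and do not say whether both genotypes shared a host or whether each library had its own host, and the effect of losing CAR cannot be told apart from that of the CD45.1 region. The 3 libraries of a group are called a, b and c after the endings of their column names, which are not replicate numbers of the labels.

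By GENCODE vM21 on GRCm38, Ifng (ENSMUSG00000055170) lies on the plus strand at chr10:118441046-118445892, Csf2 (ENSMUSG00000018916) on the minus strand at chr11:54247271-54249667, Il2 (ENSMUSG00000027720) on the minus strand at chr3:37120523-37125959 and Tgfb1 (ENSMUSG00000002603) on the plus strand at chr7:25687002-25705077. The other 3 genes are neighbours within 10913 bases of chromosome 17: Ltb (ENSMUSG00000024399) at chr17:35194439-35196320 on the plus strand, then Tnf (ENSMUSG00000024401) at chr17:35199381-35202007 and Lta (ENSMUSG00000024402) at chr17:35203165-35205351, both on the minus strand. The gap between Ltb and Tnf measures 3060 bases and the gap between Tnf and Lta 1157 bases. The 3' end of Il2 overlaps Adad1 on the opposite strand by 1408 bases and Csf2 overlaps the antisense gene Gm12223 by 2068 bases, and counting by strand is not stated, so shared reads could belong to either partner. Ifng shares 2722 bases with the provisional gene model Gm49751 on the same strand, where counting by strand would not separate them, and a miRNA gene lies within Lta (83 bases) and another within Ltb (78 bases), on the strand of each.

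The 250 bases upstream of the RefSeq start (GRCm38.p6) are shown for 4 of the genes on their own strand, since Ifng and Tnf rose together in the gut and Il2 and Lta did not pass the same tests. Capitals mark TATAAA and the NFAT core GGAAA, which reads TTTCC where it lies on the other strand. The windows are chr10:118440796-118441045 (Ifng, plus), chr17:35202008-35202257 (Tnf, minus), chr3:37125955-37126204 (Il2, minus) and chr17:35205352-35205601 (Lta, minus).
Ifng: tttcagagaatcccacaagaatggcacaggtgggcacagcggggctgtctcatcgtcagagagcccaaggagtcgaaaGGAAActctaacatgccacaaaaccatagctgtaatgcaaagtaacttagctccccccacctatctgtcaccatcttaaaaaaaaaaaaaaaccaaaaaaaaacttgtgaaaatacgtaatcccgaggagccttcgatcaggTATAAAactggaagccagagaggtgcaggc
Tnf: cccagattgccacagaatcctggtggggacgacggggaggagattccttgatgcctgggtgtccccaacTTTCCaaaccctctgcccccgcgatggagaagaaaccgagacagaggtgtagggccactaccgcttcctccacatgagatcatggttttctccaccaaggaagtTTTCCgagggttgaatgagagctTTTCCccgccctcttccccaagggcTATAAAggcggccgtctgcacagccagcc
Il2: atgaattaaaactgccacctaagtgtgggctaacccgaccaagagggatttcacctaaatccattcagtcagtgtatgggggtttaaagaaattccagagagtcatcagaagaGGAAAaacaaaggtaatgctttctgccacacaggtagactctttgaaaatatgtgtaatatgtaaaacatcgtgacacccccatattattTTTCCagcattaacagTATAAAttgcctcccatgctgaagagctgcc
Lta: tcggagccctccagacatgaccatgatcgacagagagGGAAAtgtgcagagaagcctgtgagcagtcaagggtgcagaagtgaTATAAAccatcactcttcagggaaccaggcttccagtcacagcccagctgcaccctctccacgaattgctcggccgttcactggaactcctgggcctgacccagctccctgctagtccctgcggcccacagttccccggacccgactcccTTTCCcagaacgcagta
TATAAA began 30 bases before the start in Ifng, 29 in Tnf and 31 in Il2, and 167 bases before it in Lta. Of 32851 RefSeq windows of the same length, 12.4% hold TATAAA on either strand. The NFAT core occurred 1 time in the Ifng window, 3 times in that of Tnf and 2 times each in those of Il2 and Lta, against 55.6% of all windows with at least 1. The windows of Csf2, Ltb and Tgfb1, not shown, lacked TATAAA. They held the NFAT core 2 times in Csf2, 1 time in Ltb and 0 times in Tgfb1. Neither the AP-1 motif TGANTCA (6.75% of windows) nor the T-box half-site AGGTGTGA (1.12%) was found in any of the 7 windows on either strand, and the NF-kB consensus (3.9% of windows) matched that of Ltb alone, where it overlaps the NFAT core. These are letter matches in one short window and say nothing about binding.

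Compared per length, as CPM (counts scaled to the same total in each library) divided by the kilobases of the longest coding transcript, Ifng was the most abundant of the 7 mRNAs in all 18 libraries and Ltb the second. Ifng took 73.5% to 92.7% of the summed level of the 7 genes in siLP CARko and 69.1% to 90.7% in siLP WT. It took 80.6% to 90.8% in cLP CARko and 73.0% to 85.3% in cLP WT, and 68.7% to 71.4% in spleen CARko and 45.4% to 65.7% in spleen WT. Ltb ran from 114 to 378 CPM per kilobase over the 18 libraries. The third place was less fixed: Tnf held it in all 6 siLP libraries, in 4 of 6 in cLP and in 2 of 6 in spleen. Il2 held it in the other 4 spleen libraries, and Csf2 in the other 2 of cLP.

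**Figure D1:**
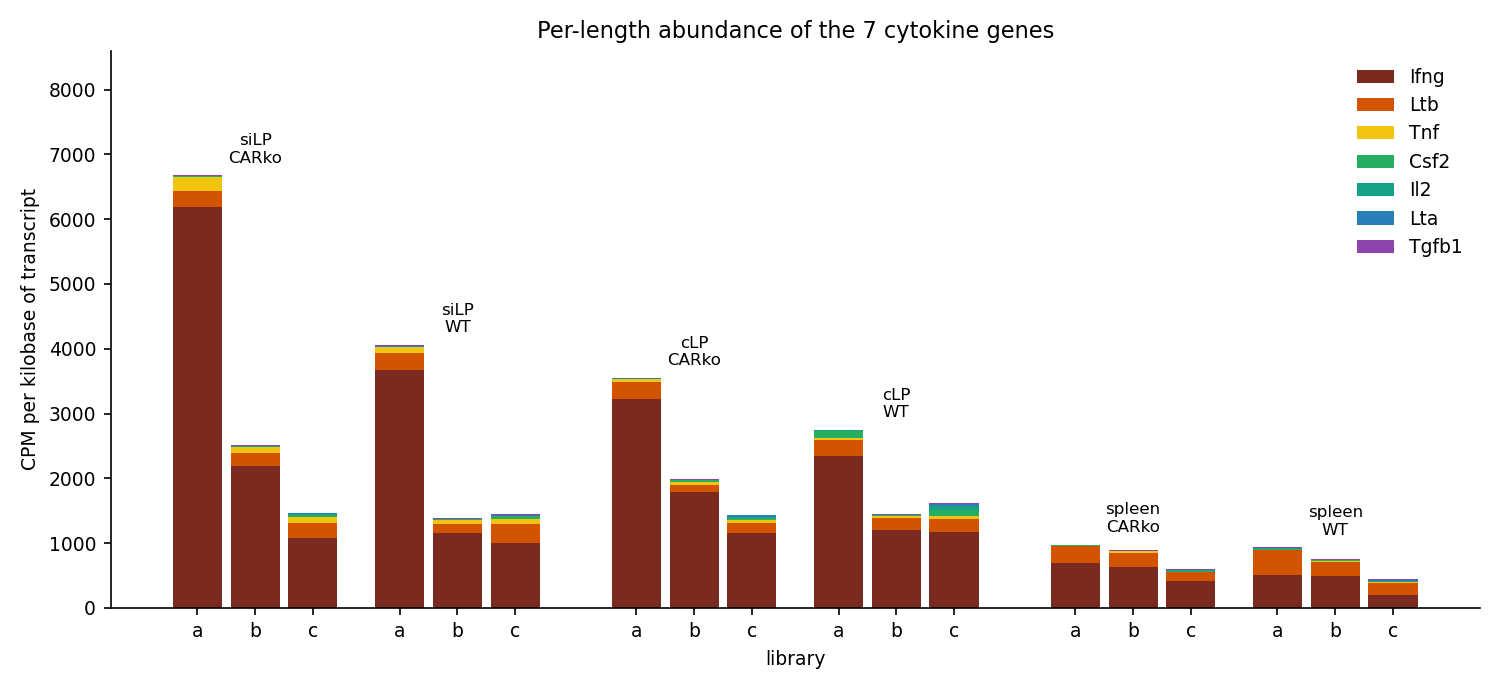
Level per length of the 7 cytokine genes in each of the 18 libraries, as CPM per kilobase of transcript, stacked by gene. Ifng fills at least 45.4% of every bar, and siLP CARko library a stands highest with 6676 CPM per kilobase over the 7 genes, against 441 in spleen WT library c.

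Total estimated counts ran from 19605135 to 25436389 per library, so 3 counts, taken as the limit of detection, corresponded to 0.108 to 0.185 CPM. Cd4 lay at 108 to 236 CPM and Cd8a at no more than 2.44 CPM. Cd8b1, the other CD8 gene read, ranged from 0 to 11.6 CPM and was highest in siLP CARko a. In each group library a stood apart, with 15466 to 16128 genes detected and 3.70% to 3.98% of counts from mitochondrial genes, against 17013 to 18819 genes and 2.23% to 3.22% in b and c. Nr1i3 itself reached 3 counts in 4 of 9 CARko and 4 of 9 WT libraries. Its highest value, 196 counts, lay in siLP CARko a, which also held the most Ifng and Tnf. The column of that library is named CD45.1-negative and was taken as CARko by elimination. A gene-level count does not show which exons the reads came from, so it did not check the assigned genotypes. The genotype differences of Ifng and Tnf are given with and without siLP CARko a.

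Ifng and Tnf were higher in T cells from both gut sites than in those from spleen, in each genotype and in every library. Ifng averaged 3808 ± 3247 CPM in siLP CARko, 2485 ± 1280 in cLP CARko, 2346 ± 1819 in siLP WT, 1901 ± 807 in cLP WT, 697 ± 179 in spleen CARko and 487 ± 212 in spleen WT (SD, n = 3 each). In siLP, libraries a, b and c read 7476, 2647 and 1302 CPM in CARko and 4444, 1387 and 1207 CPM in WT. In cLP they read 3897, 2155 and 1402 CPM in CARko and 2833, 1449 and 1421 CPM in WT. In spleen they read 842, 754 and 497 CPM in CARko and 618, 601 and 242 CPM in WT. Every gut library lay above every spleen library, while the gut groups overlapped each other and the spleen genotypes did too. Averaged over genotypes, the log2 fold change of Ifng was 2.36 ± 0.46 (± SE) between siLP and spleen (edgeR quasi-likelihood test with Benjamini-Hochberg adjustment over all genes, adjusted p = 0.0189) and 1.90 ± 0.45 between cLP and spleen (adjusted p = 0.0331). Of the 7 cytokine genes 2 passed each test, Ifng and Tnf, against 0.847% of all 14876 genes in the first (0.807% as higher) and 3.07% in the second (2.72% as higher).

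The size of the Ifng difference held without single libraries but its call often did not. Between siLP and spleen it no longer passed without siLP CARko a (log2 fold change 1.88, adjusted p = 0.0605), siLP WT a (0.0545), spleen CARko b (0.0595), spleen CARko c (0.0712) or spleen WT c (0.0738), nor without the 6 libraries a (1.64, adjusted p = 0.0525). Between cLP and spleen it no longer passed without any one of cLP CARko a or b, cLP WT a or b or the 6 spleen libraries, with adjusted p = 0.0501 to 0.0964 and log2 fold changes of 1.66 to 2.03. Within each genotype and column ending, Ifng was higher in siLP than in spleen in 6 of 6 pairs, by 1.21 to 3.15 on the scale of log2(CPM + 1), and higher in cLP than in spleen in 6 of 6, by 1.27 to 2.55.

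Tnf was lowest in spleen and highest in siLP, with cLP between, though edgeR did not call siLP against cLP. It averaged 213 ± 119 CPM in siLP CARko and 129 ± 22.2 in siLP WT, 74.4 ± 13.9 in cLP CARko and 65.4 ± 26.6 in cLP WT, and 19.7 ± 12.3 in spleen CARko and 24.5 ± 10.1 in spleen WT (SD, n = 3 each). Libraries a, b and c read 349, 132 and 159 CPM in siLP CARko and 141, 103 and 142 CPM in siLP WT. They read 64.5, 68.4 and 90.3 CPM in cLP CARko and 41.2, 61.1 and 93.8 CPM in cLP WT, and 9.01, 33.1 and 17.1 CPM in spleen CARko and 17.0, 36.0 and 20.6 CPM in spleen WT. The lowest siLP library lay above the highest cLP library, and the lowest cLP library above the highest spleen library. For Ifng and Tnf alike, how many of all genes tested separate in this way was not counted. The log2 fold change was 2.91 ± 0.36 between siLP and spleen (edgeR, adjusted p = 4.36e-04) and 1.66 ± 0.34 between cLP and spleen (adjusted p = 0.0139). Both differences passed in each of the 18 fits that left out 1 library, with adjusted p of at most 0.00288 and 0.0495. Leaving out the 6 WT libraries a and b together, which keeps 1 WT library per organ, ended the calls of Tnf (log2 fold changes 3.11 and 2.05, adjusted p = 0.183 and 0.412) and of Ifng (2.38 and 2.19, adjusted p = 0.761 and 0.495) against spleen. Between siLP and cLP the log2 fold change of Tnf was 1.25 ± 0.34 and did not pass (adjusted p = 0.222, unadjusted p = 0.0019), in a comparison in which 0 of the 7 genes passed, edgeR called 0% of all genes and 1240 had an unadjusted p under 0.05. DESeq2's Wald test (adjusted p = 0.0363) and limma's voomWithQualityWeights (0.0357) put Tnf past the threshold there.

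**Figure D2:**
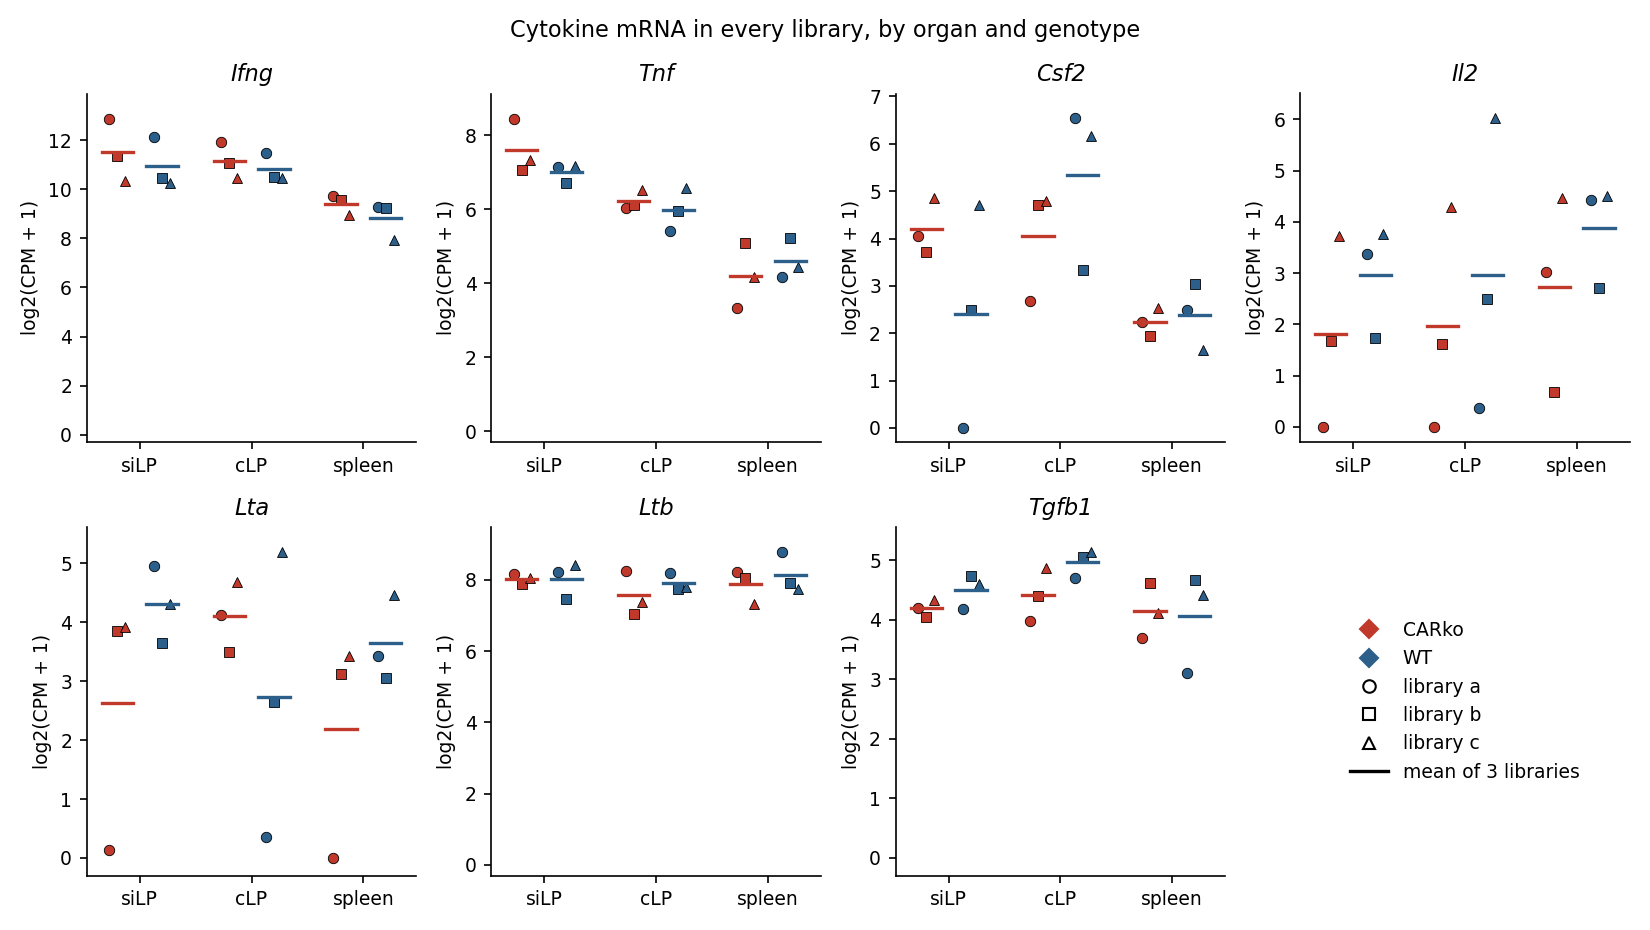
Level of each cytokine mRNA in every library as log2(CPM + 1), by organ, with CARko left of WT, symbols for libraries a, b and c, and bars for the mean of 3 libraries. Ifng and Tnf sit higher in siLP and cLP than in spleen in both genotypes, while the genotypes overlap within each organ for each gene.

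Genes of other cell types were detected in these sorts and some of them moved with the organ. The 10 CD4 T cell markers summed to 7667 to 12976 CPM in siLP, 7568 to 14677 CPM in cLP and 6958 to 13020 CPM in spleen. Of 11 markers of macrophages, monocytes, dendritic cells and neutrophils, cells that can make TNF, the summed level was 142 to 272 CPM in siLP and 117 to 281 CPM in cLP, against 63.9 to 184 CPM in spleen. Lyz2 read 24.6 to 118 CPM in siLP and 7.91 to 70.5 CPM in cLP, against 0 to 7.44 CPM in spleen, and Cd74 gave most of the rest. Cd14 stayed at or below 2.53 CPM, Csf1r at or below 5.37 CPM and Adgre1 at or below 2.91 CPM in all 18 libraries, and the highest Csf1r value was in spleen. Cd68 and Itgax read higher and peaked in the gut. Cd68 reached 65.2 CPM in siLP WT library a, against 36.2 CPM in spleen WT library b, its highest spleen value. Itgax reached 16.5 CPM in cLP WT library a, above all its spleen values. For both genes the gut and spleen ranges overlapped. The 8 markers of CD8 T, NK and innate lymphoid cells summed to 15.0 to 53.4 CPM in siLP, 17.8 to 37.8 CPM in cLP and 8.88 to 41.3 CPM in spleen. Stromal and endothelial markers summed to 60.3 to 133 CPM in siLP, 104 to 227 in cLP and 47.4 to 81.5 in spleen, intestinal epithelial ones to 4.73 to 25.5, 22.9 to 278 and 7.70 to 13.0, and erythroid ones to 0.969 to 13.0, 0.453 to 18.7 and 146 to 2318, the highest sum of any list other than that of CD4 T cells. B and plasma cell markers reached 119 CPM at most and mast cell markers 1.52 CPM. The part of these cells in the organ differences was not tested, and in bulk RNA more cells of a type cannot be told apart from more RNA per cell.

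Csf2 was uneven between libraries and did not pass in any comparison by edgeR. It averaged 18.5 ± 8.16 CPM in siLP CARko and 9.96 ± 13.4 in siLP WT, 19.1 ± 11.9 in cLP CARko and 57.3 ± 43.0 in cLP WT, and 3.79 ± 0.99 in spleen CARko and 4.66 ± 2.54 in spleen WT (SD, n = 3 each). In cLP the libraries a, b and c read 5.42, 25.1 and 26.9 CPM in CARko and 92.0, 9.13 and 70.7 CPM in WT, against 2.15 to 7.23 CPM over the 6 spleen libraries. In siLP WT, library a had 0 counts, which allows up to 3, and the others 4.65 and 25.2 CPM. The cLP and spleen ranges overlap through cLP CARko a alone, and Csf2 was higher in cLP than in spleen in 6 of 6 pairs within genotype and ending. The log2 fold change between cLP and spleen was 2.98 ± 0.91 (edgeR, adjusted p = 0.0929). It passed without siLP WT a (adjusted p = 0.0149), without the 6 libraries a (0.0498), with the cLP and spleen libraries fitted alone (0.0245) and by DESeq2 (0.00618).

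Il2 and Lta had the largest standard errors of the 7 genes in all 3 organ comparisons, and no organ difference of theirs passed. Il2 read 0, 2.19 and 12.3 CPM in libraries a, b and c of siLP CARko and 9.37, 2.31 and 12.6 CPM in siLP WT. In cLP it read 0, 2.07 and 18.6 CPM in CARko and 0.281, 4.64 and 63.9 CPM in WT, and in spleen 7.11, 0.611 and 21.0 CPM in CARko and 20.4, 5.56 and 21.7 CPM in WT. Library c was the highest of the 3 in all 6 groups, and the 2 libraries without a count were the gut CARko libraries a. The log2 fold change of Il2 was -0.98 ± 1.31 between siLP and spleen (edgeR, adjusted p = 0.903) and 0.03 ± 1.30 between cLP and spleen (adjusted p = 1.00), with 95% confidence intervals of -3.75 to 1.79 and -2.73 to 2.78.

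Lta averaged 9.23 ± 7.91 CPM in siLP CARko and 20.2 ± 9.25 in siLP WT, 17.1 ± 7.30 in cLP CARko and 13.8 ± 19.2 in cLP WT, and 5.81 ± 5.13 in spleen CARko and 12.7 ± 7.33 in spleen WT (SD, n = 3 each). Single libraries a were nearly empty of it: siLP CARko a had 2 counts, cLP WT a 5 and spleen CARko a 0, while siLP WT a held 30.0 CPM. Its log2 fold change was 0.67 ± 1.06 between siLP and spleen (edgeR, adjusted p = 0.931) and 0.84 ± 1.06 between cLP and spleen (adjusted p = 0.835). Although Lta, Tnf and Ltb lie side by side, their levels did not run together over the 18 libraries: log2 CPM gave a Pearson r of 0.20 between Tnf and Lta, -0.04 between Tnf and Ltb and -0.26 between Lta and Ltb, as a description over libraries that share organs and column endings. Between Ifng and Tnf it was 0.73, and between Ifng and Il2 -0.63.

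Ltb averaged 267 CPM over the 6 siLP libraries, 222 over those of cLP and 269 over those of spleen. By group it averaged 262 ± 25.3 CPM in siLP CARko and 271 ± 85.1 in siLP WT, 200.2 ± 90.5 in cLP CARko and 243 ± 43.0 in cLP WT, and 241.0 ± 72.4 in spleen CARko and 297 ± 124 in spleen WT (SD, n = 3 each), and groups next to each other in order of level overlapped. The log2 fold change was -0.01 ± 0.26 between siLP and spleen (edgeR, adjusted p = 1.00) and -0.28 ± 0.26 between cLP and spleen (adjusted p = 0.725). The 95% confidence intervals, -0.55 to 0.54 and -0.82 to 0.27, leave out changes of the size seen for Ifng and Tnf.

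Tgfb1 averaged 17.4 ± 1.75 CPM in siLP CARko and 22.1 ± 4.43 in siLP WT, 21.1 ± 6.77 in cLP CARko and 30.6 ± 4.92 in cLP WT, and 17.3 ± 5.85 in spleen CARko and 17.5 ± 8.85 in spleen WT (SD, n = 3 each). The log2 fold change was 0.17 ± 0.30 between siLP and spleen (edgeR, adjusted p = 0.942) and 0.54 ± 0.30 between cLP and spleen (adjusted p = 0.448). Its 95% confidence intervals were -0.47 to 0.81 and -0.10 to 1.19. The lowest value, 7.60 CPM, was in spleen WT library a and the highest, 34.5 CPM, in cLP WT library c. The annotation lists 5 transcripts of Tgfb1, of which 1 codes for the protein, and gene-level counts do not separate them.

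**Figure D3:**
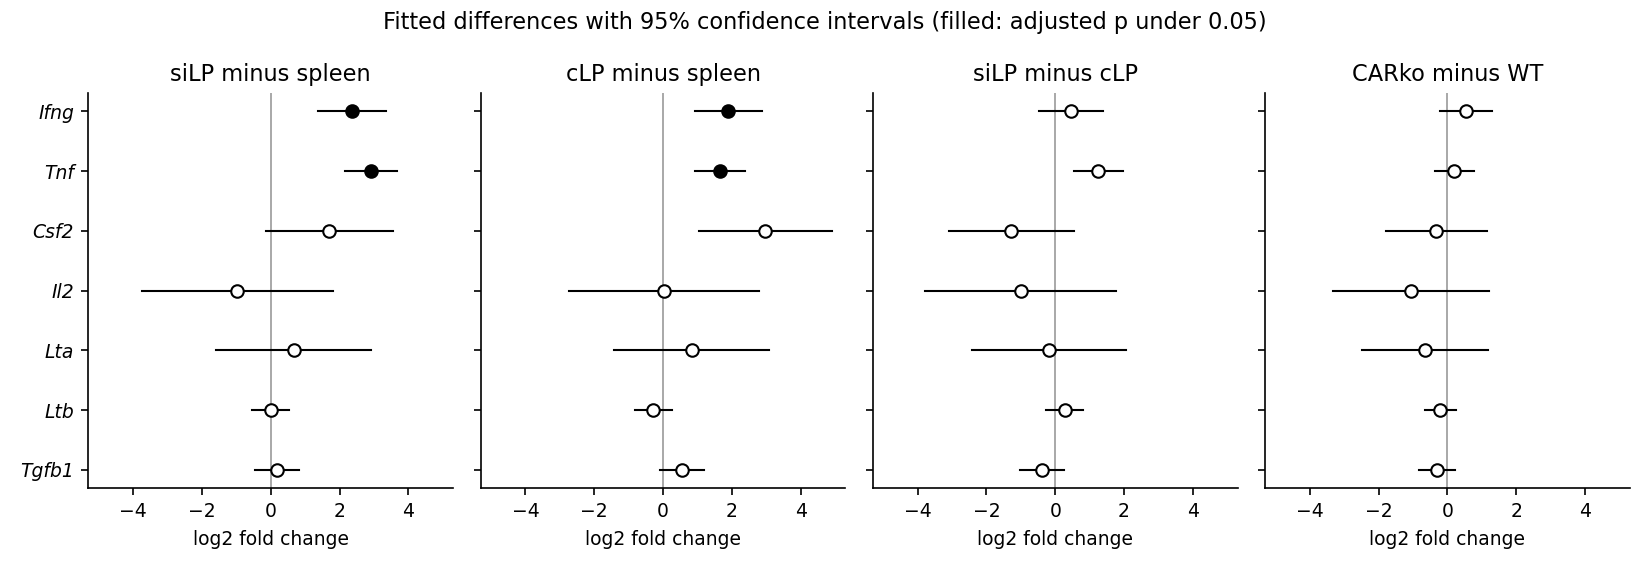
Fitted log2 fold changes of the 7 genes with 95% confidence intervals in the 3 organ comparisons, averaged over genotypes, and in CARko minus WT, averaged over organs; filled points passed at an adjusted p under 0.05. Only Ifng and Tnf against spleen are filled, at 1.66 to 2.91.

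Between CARko and WT cells, 0 of the 7 mRNAs passed in the fits across all genes. By edgeR 0 passed in siLP, cLP or spleen, where 0% of all genes were called in each and 641, 363 and 290 had an unadjusted p under 0.05, and 0 passed in the average over organs, where 0.0134% of genes did. None of the 7 had an unadjusted p under 0.05 in these 4 comparisons, and DESeq2 and voomWithQualityWeights also called 0 of the 7 in each. The genotypes overlapped for each of the 7 genes in each organ, and for how many of all genes tested they did was not counted. Averaged over organs, the log2 fold change of CARko minus WT was 0.53 ± 0.36 for Ifng (edgeR, adjusted p = 0.986), 0.20 ± 0.27 for Tnf, -0.33 ± 0.69 for Csf2, -1.07 ± 1.07 for Il2, -0.65 ± 0.86 for Lta, -0.21 ± 0.21 for Ltb and -0.30 ± 0.25 for Tgfb1 (adjusted p = 1.00 for each of the last 6). The 95% confidence interval ran from -0.23 to 1.30 for Ifng, from -0.37 to 0.77 for Tnf, from -0.65 to 0.24 for Ltb and from -0.82 to 0.22 for Tgfb1, but from -3.34 to 1.20 for Il2, -2.48 to 1.19 for Lta and -1.80 to 1.14 for Csf2. Without library siLP CARko a the average was 0.22 for Ifng and 0.015 for Tnf. Permuting genotype within organ, across column endings (exact test, two-sided, 8000 assignments) gave p = 0.185 for Ifng and 0.204 for Il2, and 0.242 to 0.868 for the other 5. Within organ and column ending (exact test, two-sided, 512 assignments) the unadjusted p was 0.0078 for Ifng and 0.0039 for Il2. The latter is the smallest that test can give, and the other 5 genes had 0.098 to 0.863. That test treats the pairs of a gene as independent, which the labels do not show, so no conclusion on genotype is drawn from it. Over the 7 genes the median log2 fold change was -0.30 with 2 of 7 above 0, against -0.01 with 7300 of 14876 above 0 over all genes tested.

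By organ, Ifng had a log2 fold change of 0.70 ± 0.62 in siLP, 0.39 ± 0.62 in cLP and 0.52 ± 0.62 in spleen. Without library siLP CARko a the siLP value became -0.25. Tnf had 0.73 ± 0.47 in siLP, 0.19 ± 0.47 in cLP and -0.31 ± 0.47 in spleen, and 0.17 in siLP without that library. Il2 had -0.75 ± 1.84, -1.73 ± 1.88 and -0.73 ± 1.84. All 9 of these values had an adjusted p of 1.00 by edgeR. The genotype difference of Tnf was larger in siLP than in spleen by 1.04 ± 0.66 and in cLP than in spleen by 0.50 ± 0.66, and neither difference of differences passed (edgeR, adjusted p = 1.00 each). Without library siLP CARko a the first of these was 0.49. None of the 7 genes passed either of these tests, in which 0% of all genes were called and 337 and 184 had an unadjusted p under 0.05.

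Set side by side within each organ and column ending, Ifng was higher in CARko than in WT in 8 of 9 pairs, by -0.02 to 1.04 on the scale of log2(CPM + 1) with a median of 0.46. Il2 was lower in CARko in 9 of 9 pairs, by a median of 0.88 and with differences of -3.37 to -0.04, of which those of siLP b, siLP c and spleen c lay between -0.05 and -0.04. Tgfb1 was lower in 7 of 9 pairs and Ltb in 6 of 9. Tnf was higher in 5 of 9, with all 3 siLP pairs above 0 and all 3 spleen pairs below. Csf2 was higher in 5 of 9 and Lta lower in 5 of 9. How many of all genes tested have pair counts like those of Ifng or Il2 was not counted. The endings order several of these genes in both genotypes alike: Ifng was highest in library a and lowest in c in all 6 groups, Lta was highest in c in 5 of 6, Ltb was highest in a in 5 of 6 and Tgfb1 lowest in a in 5 of 6. What the endings stand for is not given in the sources used here.

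**Figure D4:**
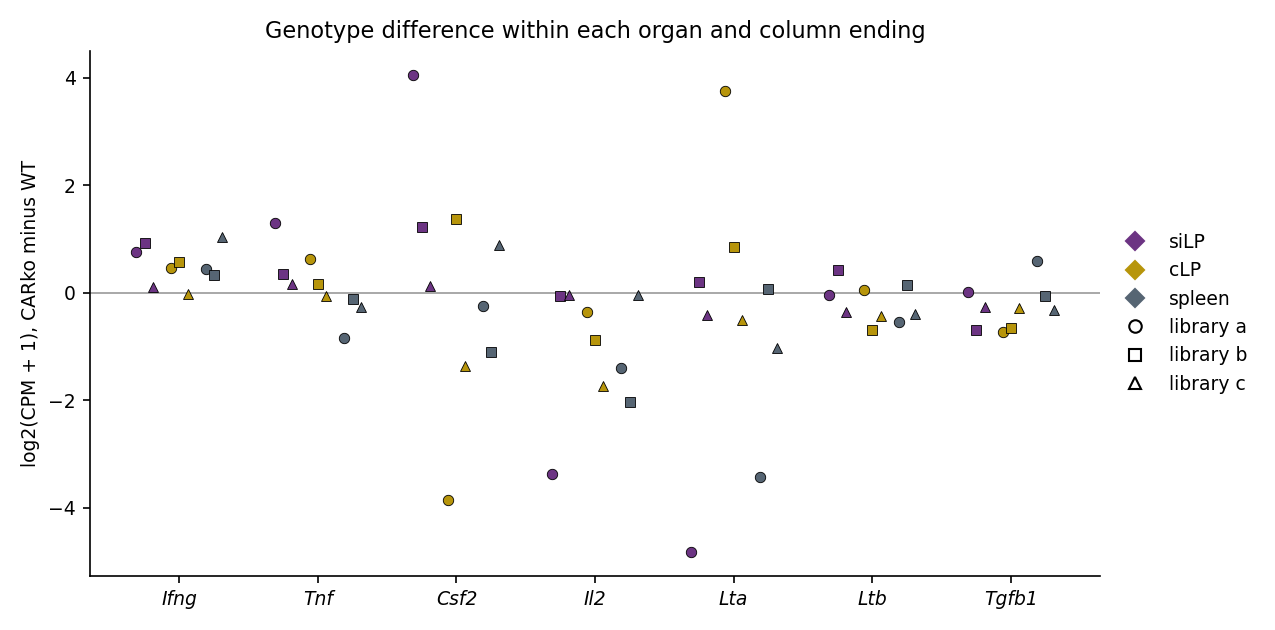
Difference CARko minus WT in log2(CPM + 1) within each organ and column ending, 9 pairs per gene, coloured by organ with symbols for libraries a, b and c. Ifng lies above 0 in 8 of 9 pairs and Il2 below 0 in 9 of 9, while Csf2 and Lta spread from -4.82 to 4.06. Such pair counts were not taken over all genes.

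Genes that act around these cytokines were read from 8 lists, and in the average over organs 0 listed genes passed for CARko against WT in any of them (edgeR). The smallest adjusted p there was that of Il21, a helper cytokine (log2 fold change -1.89 ± 0.56, edgeR, adjusted p = 0.464), which passed by DESeq2 (0.0369). The sign of Il21 was reversed without the WT libraries a and b, with a log2 fold change of 0.53. The genes with the smallest p in the other lists were Bcl2, a survival gene (0.96 ± 0.36), Il2ra, the high-affinity interleukin 2 receptor chain (1.18 ± 0.50), Zfp36l2, an RNA decay factor (0.78 ± 0.35), Batf, an AP-1 family factor (-0.54 ± 0.25), Irgm2, an interferon-induced GTPase (0.69 ± 0.32), Ski, a SMAD corepressor (0.50 ± 0.23), and Tnfaip3, an inhibitor of NF-kB (0.38 ± 0.19), with adjusted p of 0.717 to 0.892.

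Against spleen, the listed genes that passed by edgeR over the 18 libraries were all higher in the gut. Over all 14876 genes tested, 0.807% were called as higher in siLP and 2.72% in cLP. Most calls over all genes had that direction too, 120 of 126 in siLP and 404 of 456 in cLP. The lists were chosen with earlier results of these data known, so their counts are a description. Without the 6 WT libraries a and b, the calls of the listed genes named for these comparisons ended, apart from those of Tnfaip3 at both sites and of Bhlhe40, Nfkbia and Nfkbiz in cLP. Of 17 transcription factors known to act on these cytokine genes, 5 passed in siLP and 4 in cLP, with a median log2 fold change of 0.48 and 0.23 over the list against -0.01 and 0.00 over all genes. They included Bhlhe40 (2.14 ± 0.24 in siLP and 2.45 ± 0.24 in cLP; edgeR, adjusted p = 2.04e-04 and 3.42e-05), Irf4 (2.15 ± 0.30 and 2.39 ± 0.30) and the NF-kB subunit gene Rel (1.73 ± 0.26 and 2.10 ± 0.26). Of 7 factors of cytokine mRNA decay, 2 passed in siLP and 4 in cLP (medians 1.02 and 1.56). Zfp36, whose protein binds AU-rich elements such as those of Tnf mRNA, had 3.04 ± 0.49 in siLP, where it did not pass without the 6 libraries a (adjusted p = 0.0504). Its relative Zfp36l1 had 1.69 ± 0.32 and 1.56 ± 0.32; the siLP call ended without spleen CARko b or c or spleen WT b or c (adjusted p = 0.0519 to 0.0576), and the cLP call without spleen WT b (0.0503). Zc3h12a, the gene of an RNA-cutting enzyme, had 1.92 ± 0.39 in cLP. Zfp36l2 had 2.03 ± 0.44 there and lost its call without spleen CARko b or c or spleen WT b or c (adjusted p = 0.0548 to 0.0667).

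Of 11 TNF and NF-kB targets, 3 passed in siLP and 5 in cLP (medians 0.49 and 0.77). Tnfaip3 had 3.14 ± 0.26 in siLP and 3.55 ± 0.26 in cLP (edgeR, adjusted p = 1.41e-05 and 2.09e-06), and the inhibitor genes Nfkbiz (2.05 ± 0.19 and 2.68 ± 0.20) and Nfkbia (1.72 ± 0.25 and 2.32 ± 0.25) also rose. Of 20 interferon gamma targets, 1 passed at each site, the chemokine gene Cxcl10, and the list's median was -0.26 and -0.29. Cxcl10 averaged 76.3 ± 42.4 CPM in siLP CARko, 115 ± 113 in siLP WT, 168 ± 76.2 in cLP CARko, 236 ± 48.1 in cLP WT, 12.2 ± 8.93 in spleen CARko and 22.3 ± 8.21 in spleen WT (SD, n = 3 each). Its log2 fold change was 2.50 ± 0.51 in siLP and 3.59 ± 0.54 in cLP. The siLP call ended without siLP CARko c, siLP WT c, spleen CARko b or any 1 of the 3 spleen WT libraries (adjusted p = 0.0545 to 0.0978) and without the 6 libraries a (0.0650). The count of this list in cLP turned on the method: voomWithQualityWeights put 3 of the 20 higher and 8 lower there, DESeq2 put 1 higher and 1 lower, and the fit without the 6 libraries a put 2 higher and 3 lower. In siLP, voomWithQualityWeights put 1 higher and 1 lower, and without the 6 libraries a 0 were higher and 1 was lower.

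Of 14 receptor genes for the 7 cytokines, 0 passed in siLP and 2 in cLP (medians 0.28 and 0.95). The interferon gamma receptor gene Ifngr1 had 1.07 ± 0.25 in siLP (edgeR, adjusted p = 0.0663; DESeq2 0.00643) and 1.77 ± 0.26 in cLP (0.00114), and the TNF receptor 2 gene Tnfrsf1b 1.04 ± 0.19 in cLP. Of 9 interleukin 2 and STAT5 targets, 2 passed at each site (medians 0.67 and 1.27), the kinase gene Pim1 (1.83 ± 0.30 and 1.98 ± 0.30) and Socs3, a brake on cytokine signals (1.97 ± 0.35 and 1.79 ± 0.35), which did not pass in siLP without the 6 libraries a (adjusted p = 0.0636). Of 16 genes of TGF-beta activation, signalling and response, 3 passed in siLP and 6 in cLP (medians 0.37 and 1.80): Tgif1 (3.24 ± 0.36 and 3.84 ± 0.37), Skil (2.48 ± 0.39 and 3.57 ± 0.41; 2.07 in siLP without the 6 libraries a, adjusted p = 0.0543) and Pmepa1 (2.47 ± 0.40 and 2.99 ± 0.41), all known repressors of SMAD signalling, passed at both sites. Of 18 other helper T cell cytokine genes, 14 were tested. None passed in siLP, where Cd40lg, the gene of CD40 ligand, came nearest (1.41 ± 0.33, edgeR, adjusted p = 0.0571; DESeq2 0.00314). In cLP, 2 passed, the death ligand gene Fasl (1.65 ± 0.34) and Il22 (6.56 ± 1.65, adjusted p = 0.0413). Il22, which acts on epithelial cells, averaged 21.1 ± 18.5 CPM in cLP CARko and 91.6 ± 75.5 in cLP WT, against 0.167 ± 0.249 in spleen CARko and 1.22 ± 1.70 in spleen WT (SD, n = 3 each). Its call ended in 12 of the 18 fits without 1 library, 6 of them without a spleen library, with adjusted p up to 0.123.

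Between siLP and cLP, 0 listed genes passed in any list by edgeR over the 18 libraries. The smallest adjusted p per list was 0.192 for Tgfb2, which was at 0 in all siLP libraries, 0.219 for Tgfbr1, 0.222 for Jun, 0.246 for Nfkbiz, 0.363 for Zfp36, 0.390 for Tnfsf14, 0.453 for Gbp3 and 0.494 for Il2ra (edgeR). Of these genes, DESeq2 called Tgfbr1 (log2 fold change -1.40, adjusted p = 0.00936) and Nfkbiz (-0.65, 0.0469). With voomWithQualityWeights Tgfb2 (adjusted p = 0.00391), Jun (0.0355, higher in siLP) and Nfkbiz (0.0472) passed, among 3 lower genes of the TGF-beta list, 3 lower genes of the TNF and NF-kB list, 1 lower receptor gene and 1 higher transcription factor gene. Tgfb2 also passed by edgeR without the 6 libraries a (0.0334). Its level in cLP was low, at 1.64 ± 1.63 CPM in CARko and 0.83 ± 0.72 CPM in WT (SD, n = 3 each).

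**Figure D5:**
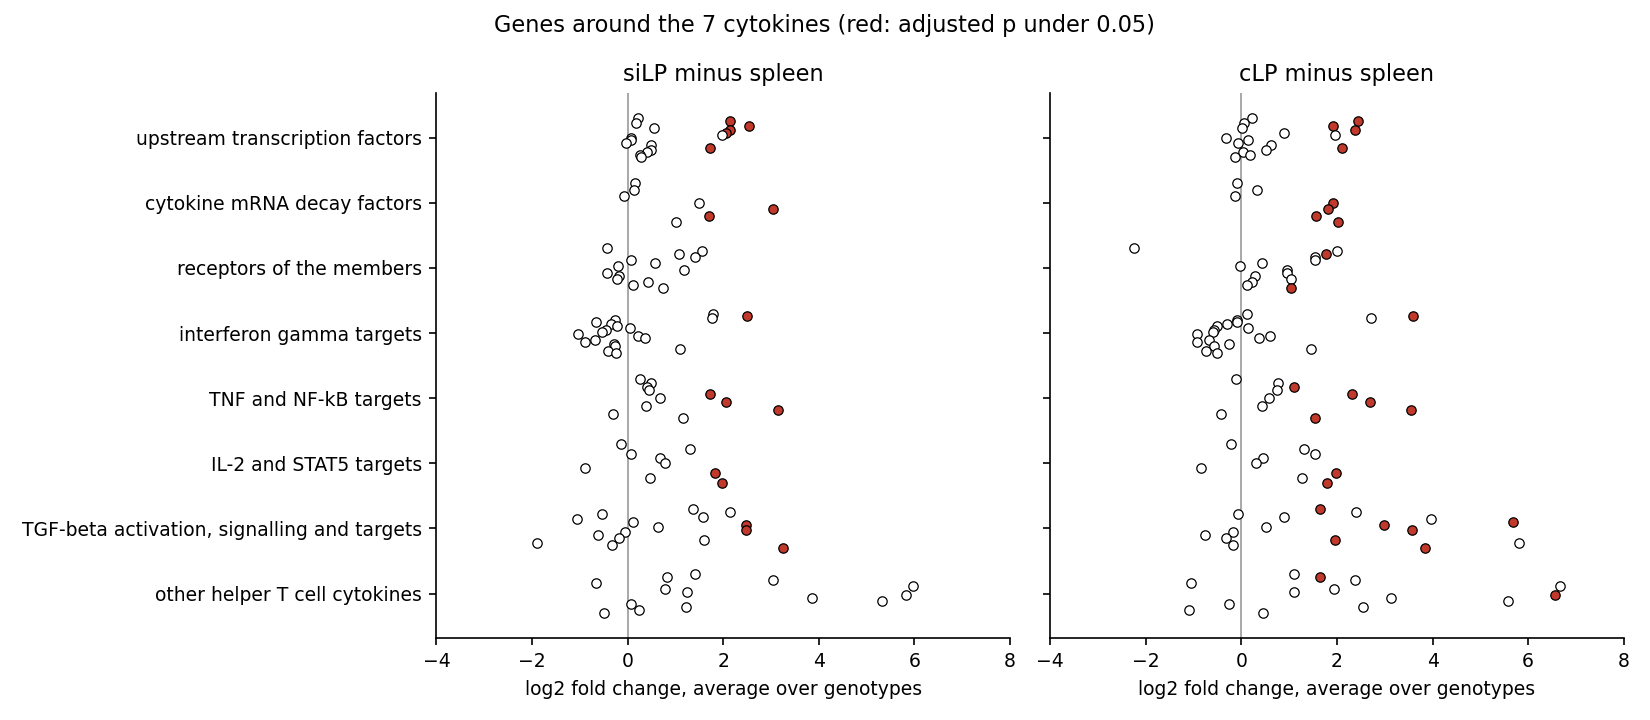
Log2 fold changes of the listed genes in siLP minus spleen and cLP minus spleen, averaged over genotypes, 1 point per gene and 1 row per list; red points passed at an adjusted p under 0.05. All red points lie right of 0, and among interferon gamma targets 1 of 20 is red in each panel.

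The genes whose levels ran most like a cytokine gene were sought among 8427 genes with a mean of at least 5 CPM, by Pearson r of log2 CPM over the 18 libraries, as a description of libraries that share organ, ending and depth. For Tnf they were Nfkbid (r = 0.97), an NF-kB regulator, Zfp36 (0.95) and Fos (0.95), an AP-1 subunit gene. For Ifng they were Map3k8 (0.94), a kinase gene of the ERK and NF-kB pathways, Ttc39b (0.93) and Cd69 (0.92), a gene of early activation and tissue retention. For Il2 they were Ifi206 (0.88), Parp8 (0.87) and Pdxp (0.85). For Lta the r was 0.95 with Gnb1l, 0.89 with Gse1 and 0.89 with Phc2, although Spearman's rho was no higher than 0.70 for these 3, and for Csf2 it was 0.86 with Ankrd37, 0.82 with Armcx5 and 0.81 with Ninj1, with rho of 0.65, 0.49 and 0.63. Tgfb1 was nearest to Saraf (0.92), Unc119 (0.86) and Ube2s (0.85), and Ltb had the lowest likeness, 0.77 with Hist1h2bj, 0.76 with Mcts1 and 0.75 with Zfp993.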

How the data were processed

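RNA-seq libraries of about 500 sorted cells were made with the SMART-Seq v4 and NEBNext Ultra II kits, per the labels' protocols. The authors deposited 1 table of estimated counts per gene with 18 count columns; Salmon, DESeq2 and mm10 are named, per the submitters' processing notes, without roles or versions, and the annotation and strand setting used are not given in the sources used here. Columns were matched to groups by organ and by CD45.1 in their names, CD45.1-negative columns being taken as CARko by elimination. A further 36 per-library columns were not used. Since the source animals of the libraries are not given, the spread behind each p-value may be technical. Reads were amplified by PCR without molecular identifiers, so limits of detection (3 counts) cover counting error only.

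After rounding of the estimated counts, genes were filtered with filterByExpr (14876 of 34162 kept), and a model with 1 mean per group was fitted to all 18 libraries with TMM scaling and edgeR 4.0.16 (quasi-likelihood test, R 4.3.3), with Benjamini-Hochberg adjustment over all genes tested and a threshold of 0.05. CPM use TMM-scaled library sizes, and levels per length use the longest coding transcript in GENCODE vM21. Intervals are 95% and SE were derived from the F statistic. Symbols came from a gene name table for 34083 of the genes, and all 7 promoters were found in the RefSeq table. The 7 genes and the gene lists were chosen with earlier results of these data known. From each list up to 3 genes past the threshold with the smallest p were named, or the 1 with the smallest p where none passed; Fos, Jun and other listed genes past the threshold are counted only. Genotype was also permuted exactly on log2(CPM + 1), within organ and, as an alternative, within organ and column ending. Alternatives were size factors, no scaling, other filters, DESeq2 1.42.0, voomWithQualityWeights (limma 3.58.1), fits of the compared groups alone, the column ending as a block, and fits without libraries. The edgeR procedure was also run on simulated counts drawn independently for each library, without deviations shared by column ending. That run cannot show how the procedure behaves where libraries deviate together.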

Additional observations from a re-analysis of the deposited data

How the results depend on the processing

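Over 1085 refits of 39 results on the 7 genes, 1018 kept direction and side of the threshold, 21 lost a call, 6 gained one and 40 changed sign, 0 of the last past the threshold. Only Ifng and Tnf against spleen had a call to lose. Ifng lost it in 8 of 28 refits for siLP and 11 of 28 for cLP, and Tnf in 1 of 28 for each site. Over 497 refits of the genotype results none passed, with a smallest adjusted p of 0.427. In siLP against spleen the number of the 7 genes called, 2, became 1 with the compared groups alone (Ifng adjusted p = 0.0561) or without the 6 libraries a, 0 without the WT libraries a and b, and 1 to 2 without single libraries. In cLP against spleen it became 3 by DESeq2, with the compared groups alone or without the 6 libraries a, 0 without the WT libraries a and b, and 1 to 3 without single libraries. In siLP against cLP it was 1 (Tnf) by DESeq2 and by voomWithQualityWeights. Over all genes the calls in siLP against spleen ranged from 6 to 400, in cLP against spleen from 19 to 1828, in siLP against cLP from 0 to 434 and for the average genotype difference from 1 to 123. DESeq2 called 35, 12 and 17 genes for genotype in siLP, cLP and spleen, and voomWithQualityWeights 2, 3 and 5. Without the 6 libraries a, the lists had, in siLP against spleen, 3 transcription factors, 2 TGF-beta genes and 1 interleukin 2 target higher, and in cLP against spleen 4 receptors, 3 interleukin 2 targets and 3 other cytokines.

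Values that changed sign lay near 0 or had wide errors, apart from the genotype averages of Batf and Il21. Their main values were -0.54 ± 0.25 and -1.89 ± 0.56. With voomWithQualityWeights they were 0.63 (Csf2, genotype average), -0.36 (Il2, cLP against spleen) and 0.14 (Ltb, siLP against spleen). Ltb in siLP against spleen was also 0.048 with the filter at 5 CPM, 0.082 with library size only, 0.22 without the 6 libraries a and 0.40 without the WT libraries a and b. Without the 6 libraries a, Ifng in siLP against cLP was -0.017 and Tgfb1 in siLP against spleen -0.036. Without the WT libraries a and b, genotype values were -0.33 for Tnf in cLP, -0.27 for Tnf in cLP against that in spleen, 0.20 for Batf and 0.53 for Il21. The permutation statistic of Csf2 was -0.078 with a pseudocount of 5 CPM. Without single libraries the genotype average ranged from -0.52 to 0.37 for Csf2, from -1.98 to 0.0017 for Il2 and from -0.84 to 0.12 for Lta. Within organs it ranged from -0.25 to 1.55 (Ifng, siLP), -0.12 to 0.81 (Ifng, cLP), -0.046 to 0.54 (Tnf, cLP), -0.91 to 0.070 (Tnf, spleen) and -4.45 to 1.48 (Il2, cLP). Between siLP and cLP it ranged from -0.014 to 0.71 (Ifng), -2.07 to 0.60 (Il2) and -0.45 to 0.99 (Lta), between cLP and spleen from -1.58 to 0.69 (Il2) and -0.32 to 1.14 (Lta), and for Ltb between siLP and spleen from -0.12 to 0.21. The causes were not tested.

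The column endings were tried as a replicate block. Libraries with the same ending deviated together (r over 0.1 in 41 of 45 pairs, against 7 of 90 others, and 18 of 18 libraries correlated best with their own ending), a hint from the data and not a paired design. With the replicate block the number of the 7 genes called did not change in any comparison. Ifng was 0.51 higher in CARko on average (adjusted p = 0.427), and values that changed sign were -0.95 (Il2, cLP against spleen), 0.20 (Lta, siLP against cLP) and 0.030 (Ltb, siLP against spleen). With the replicate block, 2 interferon gamma targets were higher and 4 lower in cLP against spleen. Permuting genotype within organ and ending, as a block, gave an exact p (two-sided, not adjusted for 7 genes) of 0.0078 for Ifng, against 0.185 across endings. For Il2 it gave 0.0039, the smallest it can give, against 0.204, so both fell under 0.05. For the other 5 genes it was 0.098 to 0.863. The block permutation treats the 9 pairs of a gene as independent, which the labels do not show. A deviation shared by both genotypes of an ending cancels within a pair. Whether the pairs of an ending depend on each other across organs was not tested. If they do, these p would be too small, and no conclusion on genotype is drawn from them.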
